A study of Mus musculus with 12 samples.

Results

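SRF (serum response factor) and YAP are the nuclear ends of pathways that read the state of the actin cytoskeleton, and 10 genes known as their targets were followed here in mouse liver after an acetaminophen (APAP) overdose. The genes were *Srf* itself, the actin genes *Actb*, *Actg1* and *Acta2*, the actin-associated genes *Tagln*, *Vcl* and *Myl9*, and the YAP targets *Ccn1*, *Ccn2* and *Ankrd1*. They were taken by gene symbol from a table of 45777 genes, and all 10 had a row. Liver RNA came from 12 male C57BL/6 mice in 4 groups of 3, which crossed genotype, wild-type (WT) or *Gna12* knockout (Gα12-/-), with treatment, vehicle or APAP. The mice were fasted overnight, APAP was injected at 300 mg/kg into the peritoneum, and the livers were taken 6 h later. The labels give an age of 10 to 12 weeks in every group, and the WT mice were littermates of the knockout line. The sources used here do not say which part of *Gna12* is deleted.

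As background, SRF binds a DNA element called the CArG box. Unpolymerised actin holds its cofactors of the MRTF family in the cytoplasm, and growth of actin filaments releases them, so that SRF then turns on genes for actin and actin-binding proteins. A second set of cofactors, the ternary complex factors such as ELK1, links SRF to growth factor signals and to the immediate early genes. YAP has no DNA-binding domain of its own and acts through TEAD proteins, while the LATS kinases of the Hippo pathway keep it out of the nucleus. Gα12, the product of *Gna12*, is the alpha subunit of a heterotrimeric G protein. In liver, *Acta2*, *Tagln* and *Myl9* are known from vascular smooth muscle and activated stellate cells, while *Actb* and *Actg1* are made by all cell types.

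Promoter sequences were taken from RefSeq on GRCm38, each running from 250 bases before to 50 after the transcription start, and were present for 7 of the 10 members (*Srf*, *Actg1*, *Acta2*, *Vcl*, *Myl9*, *Ccn1* and *Ankrd1*). The stretches below carry the letters that SRF and TEAD proteins are known to bind, with 15 bases on either side, because the members were picked as targets of these factors. Capitals mark CArG boxes and the TEAD motif CATTCC, searched on both strands (on the opposite strand it reads GGAATG). A CArG box was taken strictly as CCWWWWWWGG, where W is A or T, and forms with a differing letter were not searched.

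Srf promoter (chr17:46556200-46556259, minus strand): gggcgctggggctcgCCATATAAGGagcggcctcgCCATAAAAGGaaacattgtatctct
Actg1 promoter (chr11:120348561-120348600, minus strand): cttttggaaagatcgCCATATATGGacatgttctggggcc
Vcl promoter (chr14:20929156-20929275, plus strand): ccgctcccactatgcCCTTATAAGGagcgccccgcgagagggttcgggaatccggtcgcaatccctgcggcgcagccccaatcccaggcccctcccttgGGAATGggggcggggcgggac
Myl9 promoter (chr2:156775288-156775327, plus strand): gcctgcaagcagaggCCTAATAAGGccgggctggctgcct
Acta2 promoter (chr19:34255499-34255534, minus strand): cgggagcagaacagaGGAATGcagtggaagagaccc
Ccn1 promoter (chr3:145650068-145650103, minus strand): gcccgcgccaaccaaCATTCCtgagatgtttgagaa
Ankrd1 promoter (chr19:36119947-36120069, minus strand): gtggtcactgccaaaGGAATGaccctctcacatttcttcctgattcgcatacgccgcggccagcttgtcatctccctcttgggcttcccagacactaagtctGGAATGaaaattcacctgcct

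The CArG boxes stood in 4 of the 7 promoters, those of *Srf*, *Actg1*, *Vcl* and *Myl9*, and *Srf* held 2 of them, at -82 and -62 from the start. The TEAD motif stood in 4, those of *Acta2*, *Vcl*, *Ccn1* and *Ankrd1*, and *Ankrd1* held it at -210 and -123. Of all 32851 promoters of this length in the RefSeq table, 1.63% held a CArG box and 14.7% the TEAD motif. *Vcl* was the member whose window held both. The stretches of *Actg1*, *Vcl*, *Myl9* and *Ccn1* lie in no annotated transcript of GENCODE on the same build, that of *Srf* lies in an intron of the gene *Gm26904*, and those of *Acta2* and *Ankrd1* overlap an annotated exon of the same gene. The stretches of *Srf* and *Acta2* also lie inside the RefSeq spans of these genes given below, which begin farther upstream than the start used. The spans of *Vcl* and *Myl9* begin upstream of the start used too, but their stretches lie outside them. A match to these letters is a description, and it is neither a proven site nor a cause of what follows. A window without a match does not show that a gene lacks a site, since variant forms and other sequence were not searched.

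**Figure D1:**
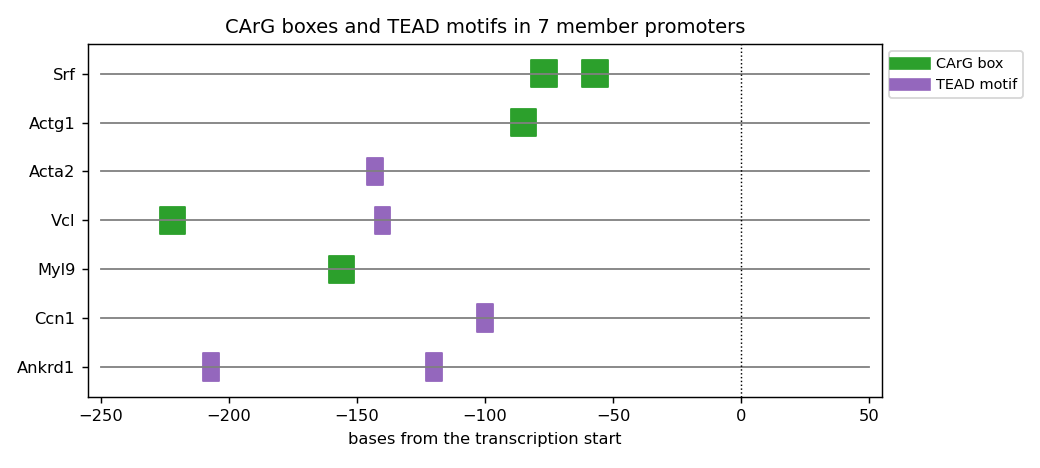
Positions of CArG boxes (green) and TEAD motifs (purple) in the 7 member promoters, with the distance from the transcription start in bases on the horizontal axis and a dotted line at the start. All of the matches lie upstream of the start used for each promoter, between -227 (Vcl) and -53 (Srf). For Srf, Acta2, Vcl and Myl9 the RefSeq gene span begins farther upstream than that start.

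Each library held between 49737950 and 69566079 reads counted on genes, and values are given below as CPM (counts scaled to a fixed library total) after TMM scaling of the library sizes. *Gna12*, the targeted gene (chr5:140759944-140830431), was measured first because the labels name it. It stood at 66.7, 34.8 and 63.4 CPM in the WT vehicle livers and at 67.2, 66.7 and 54.7 in the vehicle livers labelled KO. After APAP it stood at 23.3, 58.8 and 50.5 CPM in WT livers and at 43.3, 48.1 and 46.6 in livers labelled KO. The log2 difference of the KO label from WT was 0.19 ± 0.24 (SE, n = 3 per group) with vehicle, with an edgeR adjusted p of 0.878, and 0.05 ± 0.30 after APAP, with an adjusted p of 0.993. The count sums reads over the whole gene, so a transcript from exons outside the deleted part would still be counted. Since the deleted part is not known here, these counts cannot check the labels, and the cause of the small differences was not tested. The authors describe PCR of tail DNA and qRT-PCR of liver *Gna12* in WT littermates and knockout mice, which were not examined here. The livers are called labelled KO below for that reason.

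The library of WT APAP replicate 1 stood apart from the other 11. Its counts of the hemoglobin gene *Hba-a1* were 238212, against 2551 to 7713 elsewhere. The summed CPM of 5 erythroid markers reached 17080 there, and those of 7 neutrophil and 5 platelet markers reached 128 and 21.4, the highest values in the series. Its summed TPM (the deposited value scaled to transcript length and library size) of 4 hemoglobin genes was 28725, and its TMM factor was 0.762 against 0.890 to 1.14 elsewhere. The members' differences after APAP are given with and without it.

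A gene is called below when its adjusted p in edgeR's quasi-likelihood test is under 0.05, adjusted by Benjamini and Hochberg's method for the number of genes in the fit. Across all 12 livers, with the genotype label as a covariate, 6 of the 10 members rose after APAP: *Srf*, *Actb*, *Actg1*, *Tagln*, *Vcl* and *Ccn1*. The background is that 14.0% of the 16509 genes tested were called higher. In all 2307 genes were called higher and 1880 lower, and with limma on quantile-normalised log2(TPM + 1) values the split was 1944 to 2447. The other members, *Acta2*, *Myl9*, *Ccn2* and *Ankrd1*, had fitted differences above 0 that did not pass. The median log2 fold change was 1.88 over the 10 members and 0.01 over all genes tested. The values of every APAP liver lay above those of every vehicle liver for 5 members (*Srf*, *Actb*, *Actg1*, *Vcl* and *Ccn1*), as they did for 7.07% of all genes tested. In bulk liver RNA, fewer cells of a type and less RNA per cell cannot be told apart. The replicates are separate livers, and each p-value sets a difference against the spread between livers.

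**Figure D2:**
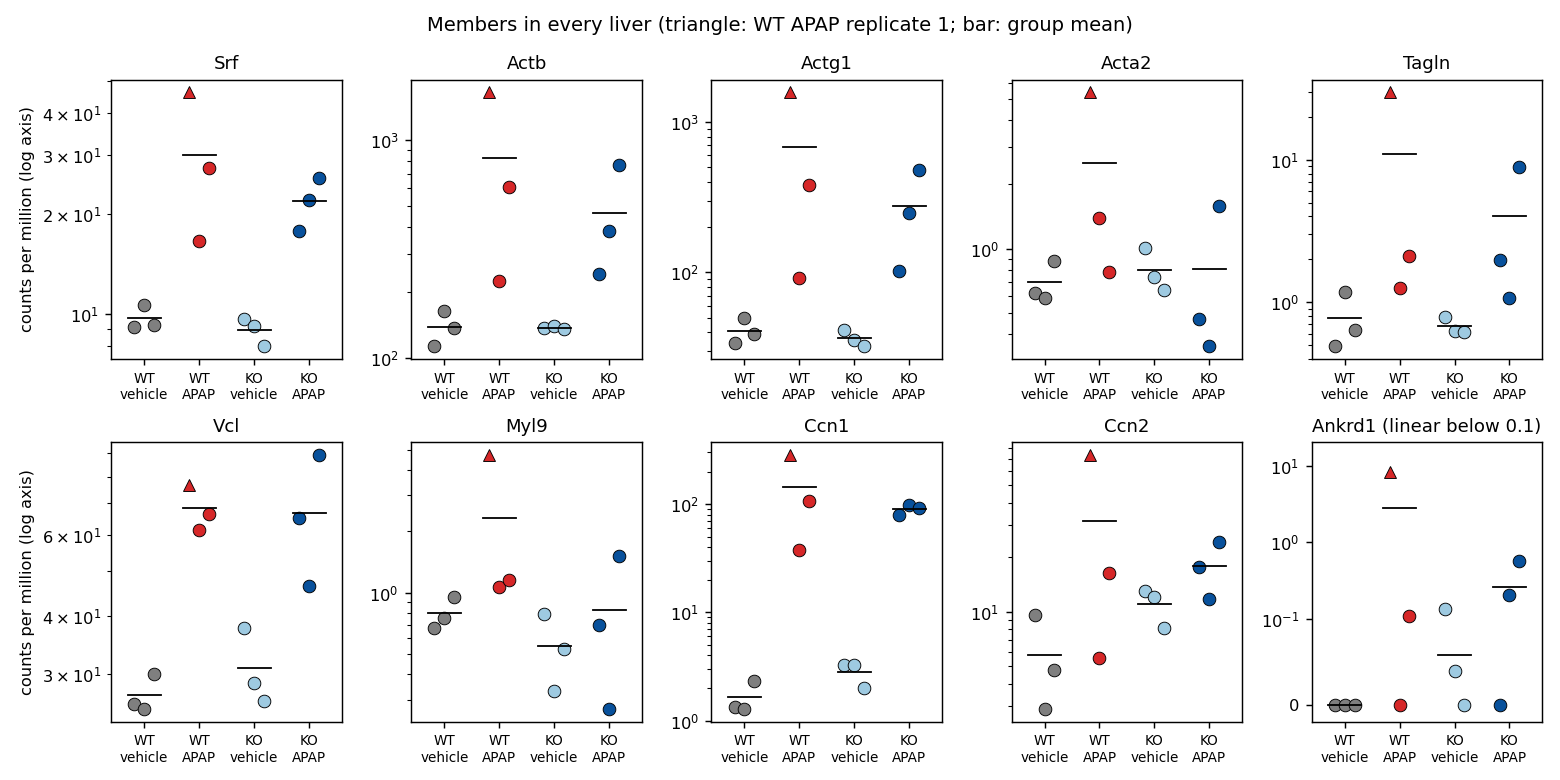
Each panel shows a member's CPM on a log axis in every liver of the 4 groups, with a bar at the group mean and a triangle for WT APAP replicate 1; the Ankrd1 axis is linear below 0.1 so that 0 can be drawn. The 6 APAP livers lie above the 6 vehicle livers for Srf, Actb, Actg1, Vcl and Ccn1, and the triangle is the highest point in every panel except that of Vcl.

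*Srf* (chr17:46546838-46558267), the transcription factor that also lies among its own targets, stood at 9.15, 10.6 and 9.27 CPM in WT vehicle livers and at 9.62, 9.19 and 7.98 in vehicle livers labelled KO. After APAP it reached 46.2, 16.6 and 27.3 CPM in WT livers and 17.8, 21.9 and 25.6 in livers labelled KO. The lowest APAP liver was thus above the highest vehicle liver. Over all livers *Srf* rose 2.76-fold (log2 1.46 ± 0.21, adjusted p = 0.000382), and it was called in each of the 12 fits that left out a library, with a lowest log2 value of 1.24 without WT APAP replicate 1. On the TPM scale its spread after APAP was smaller, with 9.38 ± 1.54 TPM (SD, n = 6) against 3.46 ± 0.682 with vehicle.

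*Actb* and *Actg1* encode the cytoplasmic actins, beta and gamma, the filament-forming proteins of nonmuscle cells. *Actb* (chr5:142903115-142907976) stood between 113 and 165 CPM in the 6 vehicle livers. After APAP it stood at 1651, 225 and 609 CPM in WT livers and at 243, 382 and 769.9 in livers labelled KO. It rose 4.52-fold over all livers (log2 2.18 ± 0.42, adjusted p = 0.00264), and without WT APAP replicate 1 the log2 value was 1.69 and still called.

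*Actg1* (chr11:120345687-120348495), whose promoter window holds a CArG box at -90, had a larger fold change than *Actb*. It stood at 33.9, 49.6 and 38.8 CPM in WT vehicle livers and at 41.5, 35.6 and 32.3 in vehicle livers labelled KO. After APAP it stood at 1571, 91.6 and 379 CPM in WT livers and at 102, 247 and 477 in livers labelled KO. The groups did not overlap, but the APAP livers covered a wide range. The rise over all livers was 11.3-fold (log2 3.50 ± 0.60, adjusted p = 0.0012), and the log2 value without WT APAP replicate 1 was 2.75, still called.

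The balance of the cytoplasmic actins differed between treatments on the length-scaled values. The ratio of *Actg1* to *Actb* TPM was 0.301, 0.302 and 0.285 in WT vehicle livers and 0.305, 0.255 and 0.240 in vehicle livers labelled KO. After APAP it was 0.957, 0.409 and 0.625 in WT livers and 0.423, 0.650 and 0.622 in livers labelled KO. All 6 APAP livers lay above all 6 vehicle livers. The coding sequences of *Actb* and *Actg1* are both 1128 bases long and 88.7% identical. The longest run of bases shared by whole transcripts of these genes is 62, shorter than the reads of 100 bases. How the counting treated reads that match both actins is not given in the sources used here.

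*Acta2* (chr19:34240336-34255585), the actin of smooth muscle and activated stellate cells, was low in every liver. It stood at 0.620, 0.588 and 0.879 CPM in WT vehicle livers and at 1.01, 0.740 and 0.641 in vehicle livers labelled KO. APAP livers had 5.39, 1.40 and 0.779 CPM in WT and 0.469, 0.350 and 1.59 under the KO label. The ranges overlapped, and the difference over all livers was not called (log2 0.95 ± 0.56, adjusted p = 0.242). Without WT APAP replicate 1 the log2 difference was 0.30. *Acta2* shares 82.8% of its coding bases with *Actb*, and the longest run shared by whole transcripts of these genes is 47 bases. Any *Actb* reads assigned to *Acta2* were not measured.

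*Tagln* (chr9:45929628-45936058) encodes transgelin, an actin-bundling protein of smooth muscle. It stood at 0.489, 1.18 and 0.639 CPM in WT vehicle livers and at 0.789, 0.623 and 0.619 in vehicle livers labelled KO. The APAP values were 29.7, 1.25 and 2.11 CPM in WT livers and 1.98, 1.06 and 8.95 in livers labelled KO. The highest liver of each APAP group carried most of the difference, and 1 APAP liver lay within the vehicle range. *Tagln* was called over all livers (9.29-fold, log2 3.22 ± 0.80, adjusted p = 0.0107), and the log2 value without WT APAP replicate 1 was 1.94, also called. On quantile-normalised log2(TPM + 1) values limma gave log2 1.46 and no call (adjusted p = 0.085), and DESeq2 gave *Tagln* no adjusted p.

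*Vcl* (chr14:20929383-21033676) encodes vinculin, which ties actin filaments to cell adhesions. In CPM its coefficient of variation among the APAP livers was 21.3%, against 41.7% for *Srf* and 116% for *Actg1*, while in TPM the spread of *Vcl* (21.4 ± 5.88, SD, n = 6) was larger relative to its mean than that of *Srf*. With vehicle it stood at 26.0, 25.3 and 30.0 CPM in WT livers and at 37.8, 28.8 and 26.3 in livers labelled KO. In APAP livers the values were 76.8, 61.4 and 66.6 CPM for WT and 65.2, 46.5 and 89.0 for the KO label. The groups did not overlap, and *Vcl* rose 2.34-fold over all livers (log2 1.23 ± 0.15, adjusted p = 0.000167), with log2 values of 1.14 to 1.33 over the 12 fits that left out a library.

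*Myl9* (chr2:156775408-156781657), a regulatory light chain of smooth muscle and nonmuscle myosin II, was again low. It stood between 0.331 and 0.959 CPM in the 6 vehicle livers. After APAP it stood at 4.73, 1.08 and 1.16 CPM in WT livers and at 0.696, 0.270 and 1.52 in livers labelled KO, where 1 liver lay below the vehicle range, 1 within it and 1 above it. It was not called over all livers (log2 1.08 ± 0.48, adjusted p = 0.122), and the log2 value without WT APAP replicate 1 was 0.54. It was called without KO APAP replicate 2 (log2 1.31, adjusted p = 0.0497).

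*Ccn1* (chr3:145646971-145649985), a secreted matrix-associated protein and an immediate early target of YAP and SRF, showed the largest difference of the members. With vehicle it stood at 1.33, 1.28 and 2.34 CPM in WT livers and at 3.24, 3.25 and 1.99 in livers labelled KO. APAP livers had 284, 38.0 and 108 CPM in WT and 80.2, 98.0 and 93.0 under the KO label. Even the lowest APAP liver was far above the highest vehicle liver. *Ccn1* rose 52.3-fold over all livers (log2 5.71 ± 0.51, adjusted p = 1.1e-05), and the log2 value without WT APAP replicate 1 was 5.20, still called.

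*Ccn2* (chr10:24595442-24598683), a related secreted protein known from scar-forming tissue, moved much less. With vehicle it stood at 9.62, 2.90 and 4.76 CPM in WT livers and at 13.02, 12.1 and 8.16 in livers labelled KO. The APAP values were 73.3, 5.58 and 16.3 CPM in WT livers and 17.6, 11.8 and 24.2 in livers labelled KO. Vehicle and APAP ranges overlapped under both labels, and the difference over all livers was not called (log2 1.57 ± 0.58, adjusted p = 0.064). DESeq2 called it (log2 1.59, adjusted p = 0.0353). Leaving out WT APAP replicate 2, the lowest APAP liver, gave log2 1.75 with an adjusted p of 0.0285. Leaving out WT APAP replicate 1 gave log2 0.79.

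*Ankrd1* (chr19:36111965-36119844), an ankyrin repeat protein best known from heart muscle and from YAP-active cells, was at or near 0 in most livers. Its counts were 0 in all 3 WT vehicle livers and 8, 2 and 0 in vehicle livers labelled KO. After APAP the counts were 428, 0 and 7 in WT livers and 0, 13 and 40 in livers labelled KO. Of the 12 livers, 6 had no read, and a count of 0 allows up to 3 reads. It passed the filter on low counts in the fit over all livers, where it was not called (adjusted p = 0.0653), and it did not pass in the comparisons within WT or within the KO label. It was called over all livers when WT APAP replicate 2, KO vehicle replicate 1 or KO APAP replicate 1 was left out (adjusted p = 0.0337, 0.0332 and 0.0486), and with the replicate number as a block (0.0421). Without WT APAP replicate 1 its fitted log2 value went from 4.80 to 2.47, and it was not called (adjusted p = 0.139). Its fitted log2 values depend on the constant added to counts of 0 and are not measured fold changes.

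On the length-scaled values, *Actb* had the highest level of the members in vehicle livers, at 115 ± 16.8 TPM (SD, n = 6), followed by *Actg1* at 32.6 ± 6.90, and neither range overlapped the next. *Vcl*, *Ccn2*, *Srf*, *Ccn1*, *Myl9*, *Tagln* and *Acta2* followed, from 8.99 ± 2.68 down to 0.466 ± 0.164 TPM, and each of these ranges overlapped its neighbour. *Ankrd1* was last at 0.0309 TPM. After APAP *Ccn1* went from place 6 to place 3 with 86.1 ± 34.0 TPM, and all its livers lay above the highest *Vcl* value. *Tagln* also passed *Myl9*, and *Ankrd1* passed *Acta2*, which came last, with overlapping ranges in both cases. *Actb* (496 ± 269 TPM) and *Actg1* (343 ± 278) overlapped after APAP. Their summed TPM was 117 to 183 with vehicle and 305 to 1703 after APAP.

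The effect of APAP was next taken within each genotype label. In WT livers 9 members were tested and 2 rose, *Vcl* (2.55-fold, log2 1.35 ± 0.17, adjusted p = 0.0136) and *Ccn1* (88.4-fold, log2 6.47 ± 0.82, adjusted p = 0.0125). Of the 15693 genes tested 1.62% were called higher in WT livers. Without WT APAP replicate 1 both were still called, at log2 1.24 and 5.46. Neither call held when WT vehicle replicate 1, WT vehicle replicate 3 or WT APAP replicate 3 was left out, with adjusted p of 0.0681 to 0.0951 for *Vcl* and 0.0534 to 0.0753 for *Ccn1*. When WT APAP replicate 2 was left out, *Srf*, *Actb* and *Actg1* were called too (adjusted p = 0.0235, 0.0293 and 0.021). The other members tested lay between log2 1.56 (*Myl9*) and 4.097 (*Actg1*), with adjusted p of 0.0663 to 0.246. Without WT APAP replicate 1 these log2 values were 1.18 for *Srf*, 1.59 for *Actb*, 2.53 for *Actg1*, 0.64 for *Acta2*, 1.13 for *Tagln*, 0.48 for *Myl9* and 0.92 for *Ccn2*, with none called. The WT APAP livers did not overlap the WT vehicle livers for 7 members, all but *Acta2*, *Ccn2* and *Ankrd1*, and the same held for 13% of all genes tested. With DESeq2, or with the spread estimated over all 12 livers, 5 of the 9 members were called in WT livers. With the replicate number as a block *Vcl* was not called (adjusted p = 0.0843).

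In livers labelled KO 9 members were tested, and 6 rose: *Srf* (2.45-fold, log2 1.29 ± 0.16, adjusted p = 0.00169), *Actb* (3.39-fold, adjusted p = 0.0115), *Actg1* (7.58-fold, adjusted p = 0.00507), *Tagln* (5.89-fold, adjusted p = 0.0374), *Vcl* (2.17-fold, adjusted p = 0.0135) and *Ccn1* (32.1-fold, log2 5.00 ± 0.22, adjusted p = 2.4e-05). The share of the 15665 genes called higher was 13% under this label, and 21.6% of them had APAP livers wholly above the vehicle livers, as these 6 members did. *Acta2* lay at log2 0.02 ± 0.56, *Myl9* at 0.59 ± 0.61 and *Ccn2* at 0.69 ± 0.27, and none of them was called. The calls of *Srf*, *Actg1* and *Ccn1* held in all 6 fits that left out a library. *Actb* and *Vcl* lost theirs without KO vehicle replicate 2 (adjusted p = 0.0508 and 0.0607) or replicate 3 (0.0503 and 0.0577). *Tagln* lost its call without any of the 3 vehicle livers (adjusted p = 0.0793 to 0.119) and without KO APAP replicate 3, where the log2 value was 1.18 (adjusted p = 0.0798). With the spread estimated over all 12 livers, neither *Actb* (adjusted p = 0.068) nor *Tagln* (0.15) was called under the KO label. *Tagln* was also not called with the replicate number as a block (adjusted p = 0.0715) or with limma on log2(TPM + 1) and log2(TPM + 0.1) (0.134 and 0.0945). Without KO APAP replicate 3, *Actg1* was at log2 2.28, still called, and without KO APAP replicate 2 *Ccn2* was called (log2 0.92, adjusted p = 0.029).

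**Figure D3:**
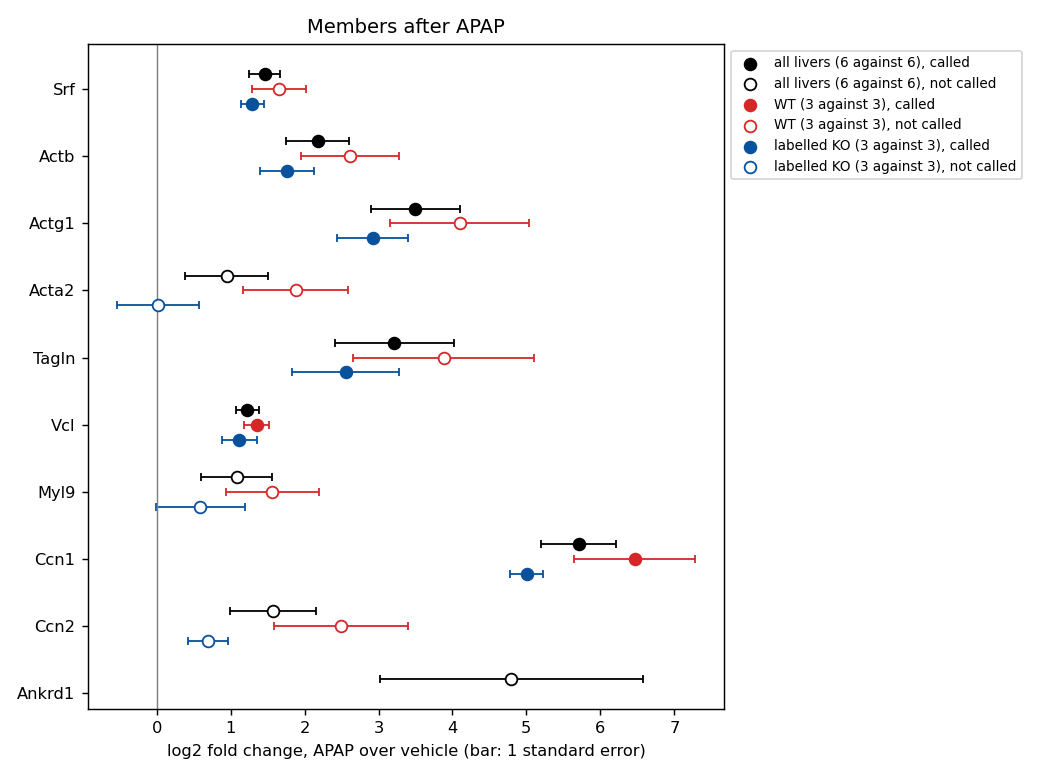
Log2 fold change of APAP over vehicle for each member, with bars of 1 standard error, over all livers (black), in WT livers (red) and in livers labelled KO (blue); filled points passed the test. Ccn1 lies farthest to the right in each comparison, between 5.00 and 6.47, and the bars are wider in WT livers than under the KO label for 8 of the 9 members tested in both; the Ankrd1 value is a fitted one that rests on counts near 0.

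The design also asks whether the members differ between the genotype labels. With vehicle 0 of the 9 members tested were called, and 0.0262% of the 15262 genes tested were called. The log2 differences of the KO label from WT ran from -0.52 (*Myl9*) to 0.95 (*Ccn2*). *Ccn1* lay at 0.78 (95% interval 0.02 to 1.54) and *Ccn2* at 0.95 (-0.01 to 1.90), with adjusted p of 0.654 for both. For *Actb* the interval was -0.37 to 0.36 and for *Srf* -0.45 to 0.22.

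After APAP again 0 of the 10 members were called between the labels, against 0.0309% of the 16174 genes tested, and the groups overlapped for every member. All 10 log2 differences lay below 0 with the 3 WT livers, from -0.05 (*Vcl*, 95% interval -0.62 to 0.51) to -3.45 (*Ankrd1*, a fitted value that rests on few counts). Without WT APAP replicate 1, 7 of the 10 lay above 0 and 3 below. *Actb* went from -0.88 to 0.16, *Actg1* from -1.36 to 0.23, *Tagln* from -1.51 to 1.25, *Ccn1* from -0.70 to 0.32 and *Ccn2* from -0.87 to 0.71. *Srf* went from -0.49 to -0.01. That library was the highest of the 6 APAP livers for 9 of the 10 members in CPM and for 8 in TPM, where *Srf* and *Vcl* were highest in KO APAP replicate 3. Leaving out KO APAP replicate 3 instead moved differences further below 0. They were -1.43 for *Actb*, -1.99 for *Actg1*, -2.64 for *Acta2*, -2.89 for *Tagln*, -0.30 for *Vcl*, -2.28 for *Myl9* and -4.75 for *Ankrd1*. No member was called in any fit that left out a library.

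**Figure D4:**
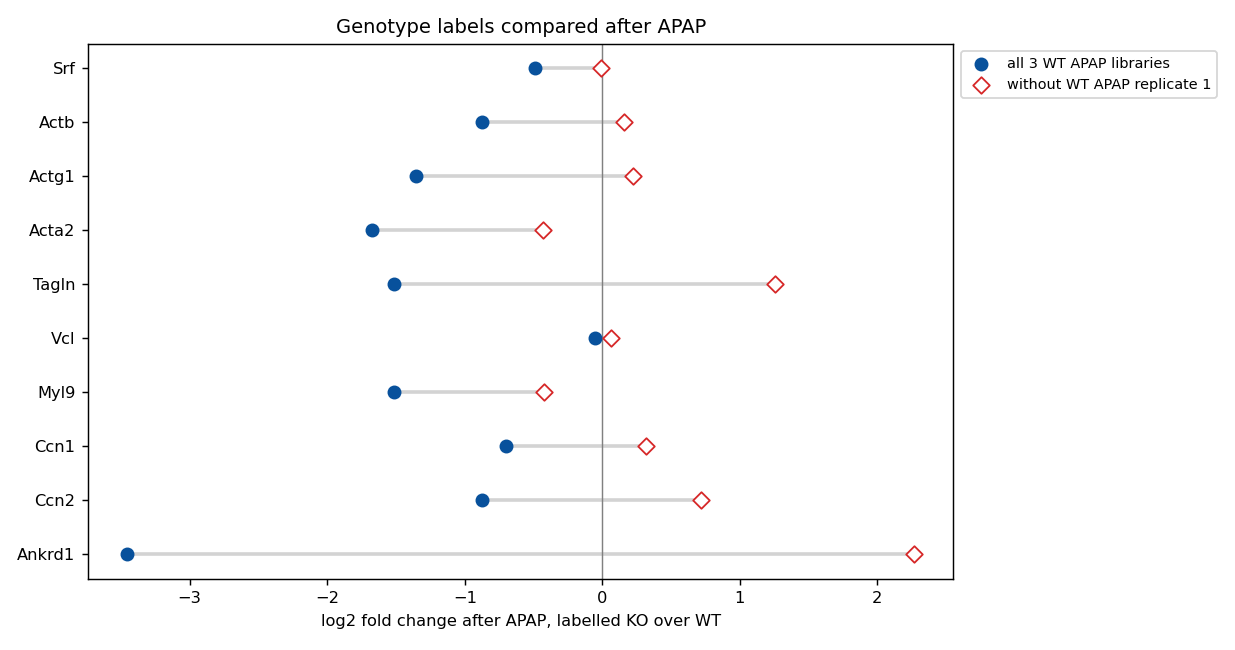
Log2 difference of livers labelled KO from WT livers after APAP for each member, with all 3 WT libraries (filled circles) and without WT APAP replicate 1 (open diamonds). All circles lie to the left of 0, and 7 of the 10 diamonds lie to the right of it. The fits that left out a library labelled KO are not drawn.

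Whether the effect of APAP differed between the labels was tested as an interaction over all 12 livers. The test called 0 of the 16509 genes (0.00%) and none of the members, while 848 genes had an unadjusted p under 0.05 and the Wald test of DESeq2 called 9. The interaction estimates of the members other than *Ankrd1* ran from -0.23 (*Vcl*) to -1.85 (*Acta2*), with adjusted p of 0.872 to 0.914. The 95% interval was -1.26 to 0.55 for *Srf*, -3.15 to 0.23 for *Ccn1* and, the widest of these 9, -4.63 to 2.00 for *Tagln*. Without WT APAP replicate 1 the estimates of 5 of the 10 members lay above 0. Without KO APAP replicate 3 they were lower for *Actb* (-1.42), *Actg1* (-1.83), *Acta2* (-2.84), *Tagln* (-2.71), *Vcl* (-0.49) and *Myl9* (-1.76).

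The regulators above the members were read from lists of the same pathways, with the same background of 14.0% called higher over all livers. Of 6 tested SRF cofactors, 1 rose and none fell. It was *Mrtfa*, an MRTF (1.55-fold, log2 0.63 ± 0.17, adjusted p = 0.0187), from 6.74 ± 1.83 CPM (SD, n = 6) to 10.4 ± 1.62. Its relative *Mrtfb* lay at log2 0.15 ± 0.12, and the ternary complex factors *Elk1*, *Elk3* and *Elk4* at -0.12 ± 0.18, -0.54 ± 0.21 and 0.10 ± 0.19, none of them called. Within the labels *Mrtfa* was called under the KO label (log2 0.79, adjusted p = 0.00955) and not in WT livers (0.48, adjusted p = 0.439).

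Of 27 other tested SRF and MRTF targets, 11 rose and 1 fell, with a median log2 fold change of 0.62. Among those with the smallest p were the tropomyosins *Tpm4* (3.08-fold, adjusted p = 0.00322) and *Tpm1* (1.75-fold, adjusted p = 0.0106), which stabilise actin filaments, the filament crosslinker *Flna* (2.38-fold, adjusted p = 0.00742), the integrin subunit *Itga5* (1.70-fold, adjusted p = 0.00151) and *Tuft1* (2.15-fold, adjusted p = 0.00108). *Mylk*, the kinase that phosphorylates myosin light chains, fell from 111 ± 17.2 to 51.5 ± 10.1 CPM (n = 6 each; log2 -1.10 ± 0.14, adjusted p = 0.000197). The largest value in this list, that of *Acta1*, the skeletal muscle actin (picked out after its value was seen), rests on counts of 0 in all 6 vehicle livers and at most 21 after APAP. With *Acta1* set to the bound that the floor of 3 counts allows, the median of the list was the same 0.62. Within the labels 0 of 25 tested targets were called higher in WT livers and 3 of 24 under the KO label. The shares over all genes were 1.62% and 13%. *Mylk* was called lower under both labels. *Flna* and *Tpm1* were called under neither (edgeR adjusted p of 0.0527 and 0.0968 in WT, 0.126 and 0.123 under the KO label). Their vehicle and APAP ranges overlapped over all livers.

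All 9 immediate early genes of the SRF and ternary complex factor list rose, with a median log2 fold change of 5.33. *Egr1*, a zinc finger transcription factor, went from 11.9 ± 11.7 to 1225 ± 405 CPM, *Fos* from 1.29 ± 1.07 to 158 ± 86.7, and *Ier2* from 15.8 ± 5.11 to 239 ± 115 (SD, n = 6 each). The adjusted edgeR p-values of these 3 genes were 9.6e-06, 1.7e-05 and 7.2e-06. *Mcl1*, an antiapoptotic BCL2 relative, was the least changed of the 9 (1.88-fold, adjusted p = 0.000646).

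Of 15 Hippo and TEAD components 1 rose, *Yap1* (1.25-fold, log2 0.32 ± 0.10, adjusted p = 0.0365), and none fell. The kinase gene *Lats2* (log2 0.34 ± 0.12, adjusted p = 0.0609), the YAP paralog *Wwtr1* (0.37 ± 0.14, adjusted p = 0.0736) and *Tead1* (0.60 ± 0.23, adjusted p = 0.076) did not pass. Of 18 other tested YAP targets 2 rose, and the median was 0.10, near the 0.01 of all genes. *Gadd45a*, which is also a well-known stress gene, went from 3.20 ± 5.28 to 69.8 ± 47.1 CPM (SD, n = 6) (adjusted p = 0.000473). *Fjx1* rested on 0 to 2 counts with vehicle and 4 to 22 after APAP. *Tgfb2*, *Axl*, *Asap1* and *Ccdc80* did not pass over all livers. The large rise of *Ccn1* was thus not shared by most genes of the YAP lists.

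**Figure D5:**
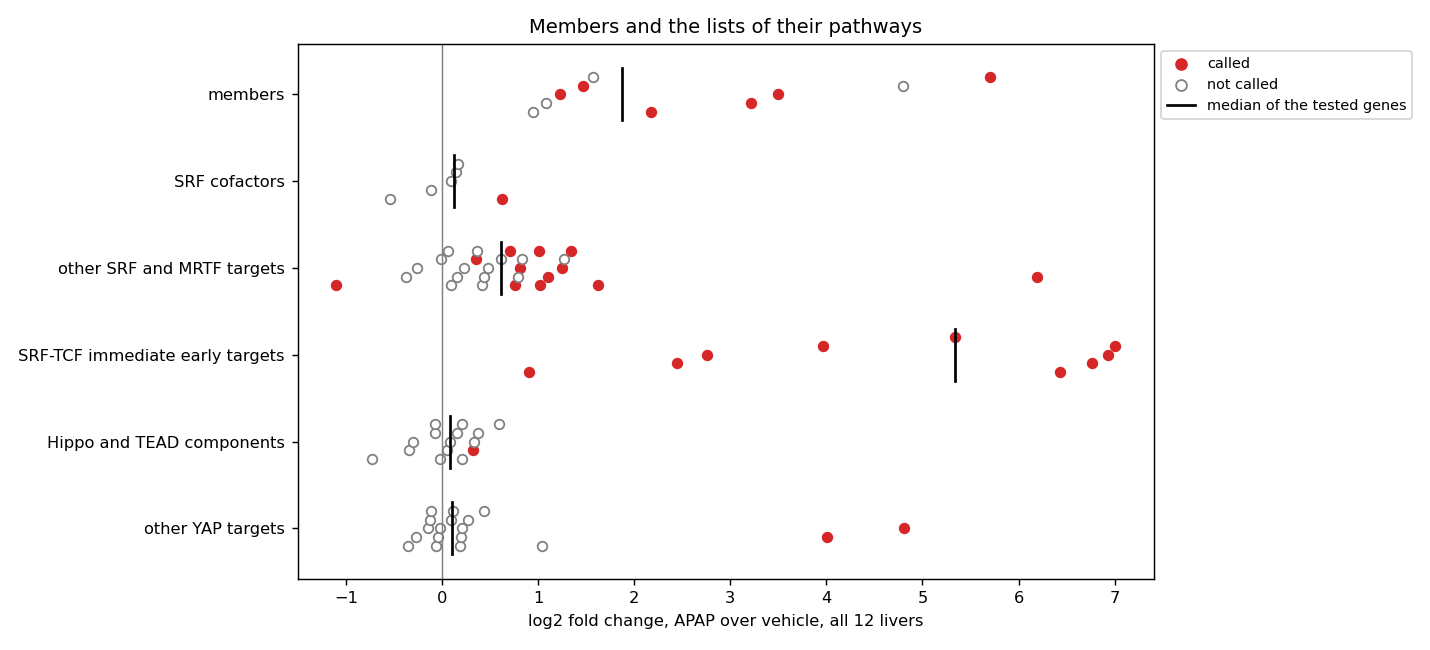
Log2 fold change of APAP over vehicle across all 12 livers for each tested gene of the members and of 5 pathway lists, with filled red points for genes that passed the test and a bar at each list's median. The medians are 1.88 for the members, 5.33 for the immediate early genes, 0.62 for the other SRF and MRTF targets, and between 0.08 and 0.12 for the remaining lists.

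Markers of the cell types that could carry the members were summed in CPM. Of 8 smooth muscle markers the sum was 90.5 to 141 in vehicle livers and 50.1 to 73.2 after APAP, of which *Mylk* made the most. Over all livers *Mylk* was the marker of this list that was called. Of the 6 tested, 5 had fitted values above 0, with a median log2 of 0.22. The median was 0.88 for the 5 tested in WT livers and -0.52 for the 4 tested under the KO label. *Cnn1*, *Actg2*, *Myocd* or *Synpo2* were at 0 in 9 of the 12 livers. The sum of 12 stellate cell markers ran from 276 to 479 with vehicle and from 321 to 593 after APAP. The highest was WT APAP replicate 1, and the other 5 APAP livers lay between 321 and 335, within the vehicle range of both labels together. Within each label the vehicle and APAP sums did not overlap, with APAP higher in WT livers and lower under the KO label. WT sums were 276 to 318 with vehicle and 321 to 593 after APAP. Under the KO label they were 350 to 479 and 327 to 335. Over all livers 1 of these 12 markers was called, lower (*Lrat*, named after its value was seen). Within WT livers 0 were called, and 3 were called lower under the KO label, where 9.60% of all genes were. The sum of 5 cholangiocyte markers was 12.0 to 26.3 with vehicle and 27.8 to 73.7 after APAP, with no overlap, and 2 of the 5 were called higher. Of 7 endothelial markers 3 were called higher, with sums of 139 to 185 with vehicle and 143 to 237 after APAP, and of 8 Kupffer cell markers none was called. The sum of 7 mesothelial markers was at most 3.07. The sum of 7 neutrophil markers was 1.20 to 19.7 with vehicle, 12.9 to 128 in WT APAP livers and 1.10 to 8.63 in APAP livers labelled KO. The part of these cells in the members' values was not tested. The 8 hepatocyte markers, which include *Alb*, were high in every liver, with sums of 71347 to 140157 CPM. Over all livers 1 of these 8 was called lower and none higher. Of 6 tested neutrophil markers 1 was called higher, and of 3 tested platelet markers 2. The shares over all genes tested were 14.0% higher and 11.4% lower.

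The members varied together across the livers. Over the 45 pairs of members, Pearson's r of log2 CPM ran from 0.40 to 0.99 over the 12 livers (median 0.77), and from 0.38 to 0.99 on the deviations from the group means (median 0.76). All pairs share their libraries, and WT APAP replicate 1 lies far from the rest in most of them, so these values describe the data and are given without a test. *Srf*, *Actb* and *Actg1* were closest on the deviations (r = 0.96 to 0.99), *Acta2*, *Tagln* and *Myl9* lay at 0.88 to 0.90, and the 9 pairs with *Vcl* had a median of 0.47. Over the 12 livers the pairs with *Vcl* had a median of 0.80.

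Among all genes tested, those whose log2 CPM followed the mean of the standardised members most closely over the 12 livers were *Lnx2* (r = 0.98), *Pdlim7* (0.97), *Ucp2* (0.97), *Klf7* (0.96) and *Myl12a* (0.96). On the deviations from the group means they were *Lnx2* (0.97), *Klf7* (0.96), *S1pr3* (0.96), *Spdef* (0.96) and *Ucp2* (0.96). *Pdlim7* encodes a LIM protein of the actin cytoskeleton, *Myl12a* a regulatory myosin light chain, and *S1pr3* a receptor for sphingosine 1-phosphate.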

How the data were processed

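Poly-A RNA of 12 livers was sequenced in paired reads of 100 bases from a stranded library. Per the labels' processing notes, the authors used FastQC 0.11.7, Trimmomatic 0.38, HISAT2 2.1.0, Bowtie2 2.3.4.1 and StringTie 2.1.3b, and the notes name the mouse genome build mm10 (GRCm38). The authors deposited raw counts per gene, FPKM and TPM for each liver. The deposited counts were used for all tests, the deposited TPM for levels compared between genes, and the deposited FPKM were not used here. Groups came from the labels.

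Counts were tested with edgeR 4.0.16 in R 4.3.3 (TMM, filterByExpr, quasi-likelihood test, Benjamini-Hochberg over all genes tested, threshold 0.05) in 6 comparisons: APAP against vehicle within each genotype label and over all livers with the label as covariate, the labels within each treatment, and the interaction. Standard errors were the log2 fold change divided by the square root of F, and 95% intervals used the t distribution of the same fit. Log2 CPM used a prior count of 2. The pipeline was tested on simulated data. Alternatives were DESeq2 1.42.0, its size factors, no filter, at least 10 counts in every library, the replicate number as a block, limma 3.58.1 on quantile-normalised log2(TPM + 1) and log2(TPM + 0.1), a fit on all 12 livers, and each library left out. A total of 49737950 to 69566079 counts per liver sets the precision, and a floor of 3 counts was used for genes at 0.

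All 10 members are named with their values, with at most 6 genes of the smallest unadjusted p over all livers from each pathway list, *Gna12*, and the 5 genes most like the mean of the members by Pearson's r over the livers and over the deviations from the group means. The result of 1 pathway list is not reported here. The members and lists were chosen with earlier results of these data known.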

Additional observations from a re-analysis of the deposited data

How the results depend on the processing

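The 6 members called over all livers kept their direction under every alternative run, and their calls in the 12 fits that left out a library. In WT livers the genes called were 322 and the members called 2. With DESeq2 these were 1413 and 5, with all 12 livers in the fit 1523 and 5, and over the fits that left out a library 41 to 442 and 0 to 5. Under the KO label 3538 genes and 6 members were called, with 2249 genes from all 12 livers, and 1995 to 3368 genes and 3 to 7 members with a library left out. Between the labels with vehicle 4 genes were called, with 137 for DESeq2, 0 from all 12 livers and 0 to 16 with a library left out. After APAP 5 were called, with 29 for DESeq2, 1 with at least 10 counts in every library, 0 from all 12 livers and 1 to 7 with a library left out. The interaction called 0 genes, 9 with DESeq2 and 0 to 2 with a library left out. The causes were not tested.

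The labels do not say whether the replicate numbers pair the livers. Same-numbered livers correlated at -0.36 to 0.04 on their deviations from the group means. With 3 livers per group these values cannot decide whether the numbers pair livers. With the replicate block, 62 genes and 1 member were called in WT livers, and between the labels 0 genes were called with vehicle and 1 after APAP. The block ended the calls of *Vcl* in WT livers (adjusted p = 0.0843) and of *Tagln* under the KO label (0.0715), and *Ankrd1* was called over all livers (0.0421). It turned the KO-label difference of *Acta2* to -0.27, the vehicle difference of *Actb* between labels to 0.0081 and the APAP difference of *Ankrd1* between labels to 0.34.

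Other reversals were of differences that were not called. Under the KO label *Acta2* was -0.015 with limma on log2(TPM + 1) and -0.16 on log2(TPM + 0.1). Between labels with vehicle, *Actb* was 0.0026 with at least 10 counts, 0.064 with limma on log2(TPM + 1) and 0.064 on log2(TPM + 0.1), and *Acta2* was -0.00048 on log2(TPM + 0.1). With a library left out, the KO-label values ran from -0.94 to 0.38 for *Acta2* and from -0.18 to 1.01 for *Myl9*. Between labels with vehicle the ranges were -0.015 to 0.41 for *Acta2*, -0.13 to 0.14 for *Actb*, -0.28 to 0.012 for *Actg1* and -0.42 to 0.27 for *Tagln*. After APAP they were -1.43 to 0.16 for *Actb*, -1.99 to 0.23 for *Actg1*, -4.75 to 2.27 for *Ankrd1*, -1.15 to 0.32 for *Ccn1*, -1.37 to 0.71 for *Ccn2*, -2.89 to 1.25 for *Tagln* and -0.30 to 0.15 for *Vcl*. For the interaction they were -1.42 to 0.18 for *Actb*, -1.83 to 0.40 for *Actg1*, -1.76 to 0.12 for *Myl9*, -0.67 to 0.13 for *Srf* and -2.71 to 1.44 for *Tagln*. Depth limits *Acta2*, *Tagln*, *Myl9* and *Ankrd1* most, which stood near or under 1 CPM in vehicle livers.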

Other observations

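Genes whose RefSeq promoter held a CArG box, the members left out, were called higher after APAP over all livers in 34 of 180 tested (18.9%) and lower in 15 (8.33%). Of the 11962 tested genes with any promoter in the table, 14.2% were called higher and 12.1% lower. For the TEAD motif the share called higher was 14% of 1784 tested genes. These shares are descriptions, and no test was made of their difference.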
